A study of Homo sapiens with 6 samples.

Results

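Of the 17269 genes counted in HCT116 cells, 9 genes of the MHC class I antigen presentation pathway were followed: the class I heavy chains HLA-B, HLA-C and HLA-E, their common light chain B2M, the peptide transporter subunits TAP1 and TAP2, the loading factor TAPBP, and the immunoproteasome subunits PSMB8 and PSMB9. They were taken by gene symbol from the deposited count table. All 9 had enough counts to be tested, among 13104 genes that did. HCT116 is an established human colorectal carcinoma line, here grown in culture with serum. Poly(A) RNA was sequenced from 3 libraries of cells with a control hairpin (shCtrl, genotype labelled WT) and 3 libraries of cells in which a hairpin against PRSS22, a trypsin-like serine protease gene, was used for knockdown (shPRSS22, genotype labelled as PRSS22 knockdown). The comparison is of gene expression with and without the knockdown. The labels name no hairpin sequence, clone or time after its introduction, and do not say that the libraries of a group came from separate cultures, so p-values measure only the spread between these libraries, which may be technical.

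MHC class I molecules carry peptides from inside the cell to its surface, where T cells and natural killer cells read them. Proteasomes cut proteins into peptides, the TAP transporter moves these into the endoplasmic reticulum, and tapasin, encoded by TAPBP, holds the transporter against a class I molecule waiting for its peptide. A heavy chain reaches the surface stably only with B2M and a peptide. Interferons raise most genes of the pathway, and replace constitutive catalytic proteasome subunits with immunosubunits. Loss of parts of this pathway is a known route by which colorectal tumours escape T cells.

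The libraries held 14920523 to 15466647 estimated counts, of which the 9 genes took 0.203% to 0.223%. PRSS22 was lower in every knockdown library, at 9.86 ± 0.416 against 2.95 ± 0.296 CPM (counts scaled to a common library total, mean ± SD, n = 3), with a log2 fold change of -1.74 (SE 0.135; edgeR quasi-likelihood test, adjusted p = 4.78e-12). Fold changes are shPRSS22 against shCtrl throughout. Of 10 epithelial and intestinal markers 9 were in the table, with a summed level of 4106 to 4300 CPM in shCtrl and 4031 to 4264 CPM in shPRSS22. EPCAM, KRT8, KRT18 and KRT19 were at 344 to 1431 CPM in shCtrl on average and did not pass. The cadherin gene CDH1 rose (log2 fold change 0.15, adjusted p = 0.000901). The intestinal factor CDX2 was at 9.70 CPM in shCtrl and did not pass, VIL1 and LGALS4 had at most 23 and 15 counts and were not tested, and CDX1 was not analysed here. The intestinal keratin gene KRT20, at 0.793 to 0.990 CPM in shCtrl, was called higher (log2 fold change 1.29, SE 0.318, adjusted p = 0.00204). The library shPRSS22 replicate 1 stood apart in KRT20, at 3.41 CPM against 1.51 and 1.57 CPM in replicates 2 and 3. Without that library KRT20 did not pass (adjusted p = 0.0501). The calls lower in shPRSS22 for HLA-C, HLA-E and TAPBP were also made without it. Of 12 leukocyte markers 11 were in the table, with a summed level of 15.6 to 17.8 CPM in shCtrl and 17.9 to 20.9 CPM in shPRSS22. CD68, a lysosomal protein gene, held 85.5% to 91.5% of these counts, and the leukocyte-defining PTPRC had at most 1 count in a library. CD68 was called higher in shPRSS22 (log2 fold change 0.24, adjusted p = 0.0271). That call was lost in DESeq2 (0.134), without shCtrl replicate 1 (0.0693) or 3 (0.0993), and without shPRSS22 replicate 1 (0.0876) or 2 (0.140). The 7 fibroblast markers summed to 24.6 to 32.2 CPM in shCtrl and 28.8 to 35.1 CPM in shPRSS22. Most of this sum was COL1A1, at 28.7 CPM in shCtrl and 30.3 CPM in shPRSS22 on average, and every other fibroblast marker had at most 9 counts in a library. The 6 endothelial markers summed to 1.39 to 2.51 CPM in shCtrl and 2.52 to 3.06 CPM in shPRSS22, with CDH5 at 0 in all libraries. The part of these markers in the results was not tested. In bulk RNA, fewer cells that express a gene and less of its RNA per cell cannot be told apart.

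Between genes, levels were compared as the deposited TPM, a share of transcripts that accounts for their length. B2M and HLA-B had the highest levels, at 1008 ± 39.0 and 994 ± 2.87 TPM in shCtrl and 999.9 ± 34.9 and 977 ± 14.4 TPM in shPRSS22, and their ranges overlapped in both groups. HLA-C followed at 787 ± 3.21 TPM in shCtrl and 683 ± 8.05 TPM in shPRSS22. HLA-E, a less polymorphic heavy chain that presents leader peptides to natural killer cell receptors, stood at 167 ± 2.98 and 142 ± 1.28 TPM. The loading and transport genes were lower again: in shCtrl TAPBP was at 33.5 ± 1.23, TAP1 at 32.4 ± 1.70 and TAP2 at 25.7 ± 0.355 TPM. TAPBP and TAP1 overlapped in both groups and exchanged places in shPRSS22, where TAP1 was at 32.9 ± 2.58 and TAPBP at 29.8 ± 1.23 TPM. PSMB9 was at 19.7 ± 1.11 and 17.3 ± 0.712 TPM. PSMB8 was nearly silent, at 0.800 ± 0.335 TPM in shCtrl and 1.58 ± 0.507 TPM in shPRSS22, below PSMB9 in every library. HLA genes are highly polymorphic, and how far reads of the line's own alleles matched the reference was not tested.

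**Figure D1:**
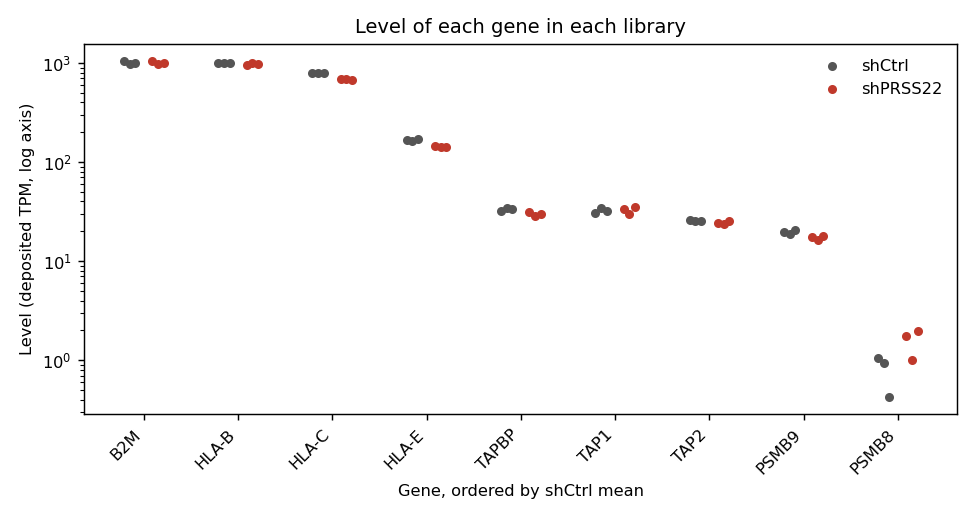
Deposited TPM (log axis) of the 9 genes, ordered by their shCtrl mean, with 1 point per library and 3 libraries per group. B2M, HLA-B and HLA-C lie between 675 and 1052 TPM, HLA-E between 141 and 170.4 TPM, and PSMB8 at 1.98 TPM or less.

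Of the 9 genes, HLA-C, HLA-E and TAPBP fell and PSMB8, a gene of 4 to 19 counts a library, was called higher, while HLA-B, B2M, TAP1, TAP2 and PSMB9 did not pass the threshold (adjusted p under 0.05 over all genes tested). Of all genes tested, 19.3% were called lower and 19.9% higher, or 39.1% in either direction, against 4 of the 9; with 9 genes these counts are not set apart from so large a background. The median log2 fold change of the 9 genes was -0.03, against -0.01 for all genes tested, and 7 of the 9 values were below 0, against 51.1% of all genes. In 4 of the 9 genes (HLA-C, HLA-E, TAPBP and PSMB9) all shPRSS22 libraries lay below all shCtrl libraries, which held for 24.3% of genes tested. In 0 of the 9 did all shPRSS22 libraries lie above all shCtrl libraries, which held for 24.2% of genes tested. The authors' deposited table lists the same 3 genes as lower at a q-value under 0.05, where it calls 8.89% of its genes lower, and 0 of the 9 as higher, where it calls 9.69% higher. The changes were small: those of the 3 genes that fell were between -0.17 and -0.24 on the log2 scale, while the median of all genes called lower was -0.27.

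**Figure D2:**
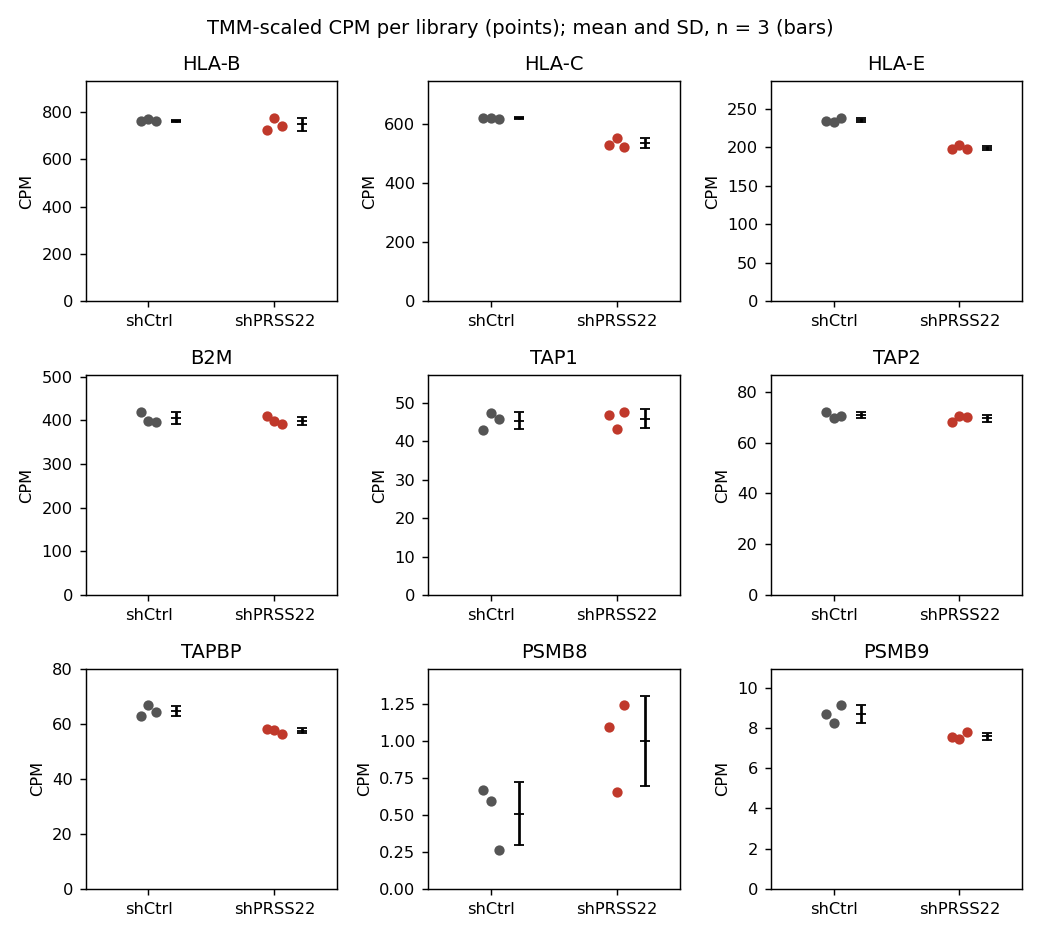
TMM-scaled CPM of each gene, with 1 point per library and the mean and SD of 3 libraries beside them; each vertical axis starts at 0. The shPRSS22 libraries lie below all shCtrl libraries for HLA-C, HLA-E, TAPBP and PSMB9, and the groups overlap for HLA-B, B2M, TAP1, TAP2 and PSMB8.

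Among the heavy chains, HLA-E and HLA-C fell and HLA-B did not pass. HLA-E (chromosome 6, 30489467 to 30494205, plus strand, 8 exons; GENCODE 29, GRCh38) stood at 234, 233 and 238 CPM in shCtrl replicates 1 to 3 and at 198, 203 and 197 CPM in shPRSS22 replicates 1 to 3. The groups were far apart relative to their spread, and the log2 fold change was -0.24 (SE 0.0328, adjusted p = 5.90e-07). HLA-C (chromosome 6, 31268749 to 31272086, minus strand, 8 exons) stood at 622, 622 and 617 CPM in shCtrl and at 528, 554 and 523 CPM in shPRSS22. Every knockdown library was below every control library, with a log2 fold change of -0.21 (SE 0.0335, adjusted p = 5.70e-06). HLA-B (chromosome 6, 31353872 to 31357187, minus strand, 8 exons) stood at 759.9, 769 and 762 CPM in shCtrl and at 723, 776 and 743 CPM in shPRSS22. Its groups overlapped, shPRSS22 replicate 2 being the highest of the 6 libraries, and the log2 fold change was -0.03 (SE 0.0342, adjusted p = 0.50).

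The unequal change of the heavy chains was also expressed as ratios within each library, where differences in depth cancel. These ratios come from the same libraries as the fold changes and were added after seeing the data. They restate those changes and are no separate support. The ratio of HLA-C to HLA-B was 0.792 ± 0.00450 in shCtrl and 0.699 ± 0.0127 in shPRSS22 (ratio of TPM, SD, n = 3), a log2 difference of -0.18, and was lower in 3 of 3 knockdown libraries (two-sided exact permutation test, p = 0.10, the smallest that 3 against 3 libraries can give; 0.171 adjusted over 12 ratios). The ratio of HLA-E to HLA-B went from 0.168 ± 0.00262 to 0.146 ± 0.00346, a log2 difference of -0.21 (exact permutation p = 0.10, adjusted 0.171). The ratio of HLA-E to HLA-C was 0.212 ± 0.00363 and 0.208 ± 0.00339, and its groups overlapped (exact permutation p = 0.40, adjusted 0.436).

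The heavy chains are near-identical over long stretches, and their counts can be divided between them: the deposited counts had decimals in all 6 libraries for HLA-B and HLA-C and in 2 libraries for HLA-E. How far the difference between HLA-B and HLA-C depends on the division of shared reads was not tested.

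The bases upstream of HLA-B and HLA-C are shown because their ratio differed between the groups while their promoters are close copies: over the 250 bases before the start they were identical at 226 of 254 aligned positions (89.0%), with 20 differences and 8 gap positions. Promoter sequences are from RefSeq (GRCh38.p14), which held 8 of the 9 genes in 10 windows, TAP1 and PSMB8 having 2 windows each; the promoter of HLA-E was not used here. Both are written 5′ to 3′ on the gene's strand. Capitals mark matches, on either strand, to 5 sets of letters. A long and a short form of the interferon-stimulated response element were GAAA or GAA, then 2 free bases, then GAAA. A form of the NF-kB site was GGG, then 2 free bases, then TTCCC. The others were TGACG, the core of cyclic AMP response elements, and CCAAT, the box bound by NF-Y.
HLA-B (chr6:31357180-31357429, minus strand): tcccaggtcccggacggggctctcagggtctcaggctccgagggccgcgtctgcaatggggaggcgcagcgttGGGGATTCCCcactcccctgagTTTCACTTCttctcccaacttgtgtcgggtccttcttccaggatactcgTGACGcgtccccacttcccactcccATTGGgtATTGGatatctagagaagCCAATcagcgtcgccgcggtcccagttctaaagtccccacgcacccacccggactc
HLA-C (chr6:31272093-31272342, minus strand): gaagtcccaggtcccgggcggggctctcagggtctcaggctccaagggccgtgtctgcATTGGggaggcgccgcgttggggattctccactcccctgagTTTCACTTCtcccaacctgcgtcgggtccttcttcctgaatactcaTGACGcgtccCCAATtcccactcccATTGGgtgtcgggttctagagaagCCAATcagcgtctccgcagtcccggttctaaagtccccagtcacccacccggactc
Both held the short response element, read on the opposite strand as TTTCACTTC, which 6.56% of 35116 promoter windows of this length hold, and TGACG, which 21.2% hold. HLA-B held 3 and HLA-C 4 matches to CCAAT, which 32.0% hold. The NF-kB form matched in HLA-B, 177 to 168 bases before its start, and had no match in the HLA-C window; 1.97% of windows hold it. These matches describe the reference sequence, not binding in these cells, and whether they bear on the ratio of HLA-C to HLA-B was not tested.

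B2M (chromosome 15, 44711487 to 44718877, plus strand, 4 exons), the light chain that all class I heavy chains share and the only 1 of the 9 genes outside chromosome 6, did not change detectably. It stood at 420.5, 399 and 397 CPM in shCtrl and at 409.5, 398 and 391.5 CPM in shPRSS22. The groups overlapped, with shCtrl replicate 1 highest, and the log2 fold change was -0.02 (SE 0.0339, adjusted p = 0.670). The ratio of HLA-B to B2M was 0.987 ± 0.0395 and 0.979 ± 0.0479 (exact permutation p = 0.70, adjusted 0.70). The ratios of HLA-C and HLA-E to B2M were lower in 3 of 3 knockdown libraries, by 0.19 and 0.22 on the log2 scale (log2 differences of -0.19 and -0.22; exact permutation p = 0.10 for each, adjusted 0.171). Summed over HLA-B, HLA-C and HLA-E, the heavy chains stood at 1.94 ± 0.0734 times B2M in shCtrl and 1.81 ± 0.0765 times in shPRSS22, and the groups overlapped (exact permutation p = 0.20, adjusted 0.24). This sum leaves out the other class I heavy chain genes, so it is not the ratio of all heavy chains to B2M. The B2M promoter is shown as that of a pathway gene that did not pass the threshold. The long response element matched it at 2 overlapping positions, between 144 and 129 bases before the start, where 3.02% of all windows hold it. Whether these letters bear on the level of B2M was not tested.
B2M (chr15:44711267-44711516, plus strand): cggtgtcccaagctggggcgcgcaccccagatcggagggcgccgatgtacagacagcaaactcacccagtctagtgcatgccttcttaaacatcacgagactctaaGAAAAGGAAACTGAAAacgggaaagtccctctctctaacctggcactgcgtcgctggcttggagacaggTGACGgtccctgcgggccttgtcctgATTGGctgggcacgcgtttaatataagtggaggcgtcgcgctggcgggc

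**Figure D3:**
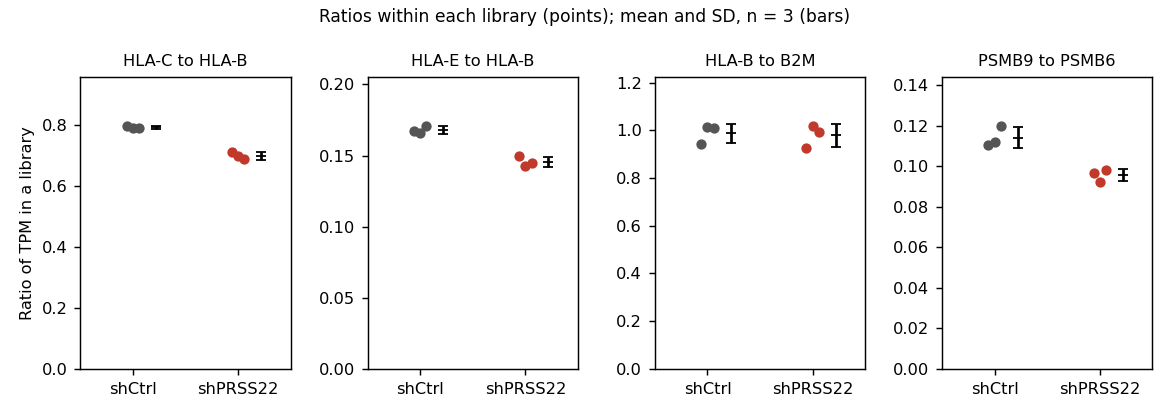
Ratios of deposited TPM within each library, with 1 point per library and the mean and SD of 3 libraries beside them; axes start at 0. HLA-C to HLA-B, HLA-E to HLA-B and PSMB9 to PSMB6 are lower in all 3 shPRSS22 libraries than in any shCtrl library, and HLA-B to B2M overlaps at 0.987 and 0.979 on average.

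The transporter subunits did not pass the threshold, while their partner TAPBP fell. TAP1 (chromosome 6, 32845209 to 32853978, minus strand, 11 exons) stood at 42.9, 47.3 and 45.9 CPM in shCtrl and at 46.8, 43.2 and 47.7 CPM in shPRSS22, with overlapping groups and a log2 fold change of 0.02 (SE 0.0548, adjusted p = 0.818). TAP2 (chromosome 6, 32821833 to 32838727, minus strand, 12 exons) stood at 72.2, 69.8 and 70.4 CPM and at 68.1, 70.5 and 70.1 CPM, also overlapping (log2 fold change -0.03, SE 0.0435, adjusted p = 0.676). TAPBP (chromosome 6, 33303573 to 33314212, minus strand, 7 exons) stood at 63.0, 66.8 and 64.4 CPM in shCtrl and at 58.2, 57.8 and 56.5 CPM in shPRSS22. All knockdown libraries were lower than all controls, and the log2 fold change was -0.17 (SE 0.0463, adjusted p = 0.00384). TAPBP overlaps RGL2, a Ral exchange factor gene, and its counts had decimals in 3 libraries; RGL2 had a log2 fold change of 0.09 and did not pass (adjusted p = 0.220). The ratio of TAPBP to TAP1 went from 1.03 ± 0.0256 to 0.909 ± 0.0528 and was lower in 3 of 3 knockdown libraries (exact permutation p = 0.10, adjusted 0.171).

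The long response element letters also matched TAPBP and TAP1, each at 2 overlapping positions, from 20 to 5 bases before the RefSeq start in TAPBP and, on the opposite strand, from 134 to 119 bases before it in 1 of the 2 windows of TAP1. The other TAP1 window held 0 matches to any of the 5 sets of letters. TAP2 held 1 match, which overlaps a match to the short form, and the windows of HLA-B, HLA-C, PSMB8 and PSMB9 held none. The GENCODE transcripts of TAPBP and TAP1 given above start upstream of the RefSeq starts, so that these matches lie within them. Of the 4 genes that held the letters, B2M, TAP1, TAP2 and TAPBP, TAPBP was called lower and the others did not pass.

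The immunoproteasome subunits were the genes of lowest count. PSMB9 (chromosome 6, 32854161 to 32859585, plus strand, 6 exons), the beta-1i subunit, starts 182 bases from TAP1 on the opposite strand. It had 130, 125 and 138 counts in shCtrl and 117, 113 and 119 in shPRSS22, or 8.68, 8.25 and 9.12 CPM against 7.53, 7.43 and 7.77 CPM. The groups did not overlap, but the log2 fold change of -0.20 did not pass the threshold (SE 0.111, adjusted p = 0.164). PSMB8 (chromosome 6, 32840717 to 32844047, minus strand, 6 exons), the beta-5i subunit, had 10, 9 and 4 counts in shCtrl and 17, 10 and 19 in shPRSS22. The groups overlapped, and the log2 fold change of 0.96 (SE 0.389) was called narrowly (adjusted p = 0.0482). PSMB8 passed the filter on low counts through 1 shCtrl and 2 shPRSS22 libraries, 3 being needed. The gene no longer passed with shCtrl replicate 2 left out (adjusted p = 0.0736) or replicate 3 (0.229), without shPRSS22 replicate 1 (0.112) or replicate 3 (0.172), with the replicate number as a block (0.0588) and with no filter on low counts (0.0547). It overlaps the antisense gene PSMB8-AS1, and the libraries carry no stated strand mark, so its few reads cannot be assigned to a strand. PSMB8-AS1 shares 594 bases with PSMB8 and 1292 bases with TAP1, so the same limit holds for TAP1 reads from the shared bases.

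Each immunosubunit takes the place of a constitutive catalytic subunit, so their ratio was taken in each library. PSMB9 stood at 0.114 ± 0.00518 times PSMB6 in shCtrl and 0.0958 ± 0.00312 times in shPRSS22, lower in 3 of 3 knockdown libraries (log2 difference -0.25, exact permutation p = 0.10, adjusted 0.171). PSMB8 stood at 0.00431 ± 0.00185 times PSMB5 in shCtrl and 0.00783 ± 0.00244 times in shPRSS22, with overlapping groups (exact permutation p = 0.20, adjusted 0.24). The constitutive subunits PSMB5 (log2 fold change 0.11, adjusted p = 0.0373) and PSMB7 (0.14, 0.00517) rose and PSMB6 had a value of 0.06 (adjusted p = 0.353). These were 2 of 3 higher, where 19.9% of all genes tested were called higher. PSMB5 no longer passed with shCtrl replicate 1 (adjusted p = 0.174) or 3 (0.0609) or shPRSS22 replicate 2 (0.0865) or 3 (0.0704) left out, or in DESeq2 (0.132). In each of these the list held 1 call.

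Of 5 other immunoproteasome and activator genes tested 4 fell and 1 rose, with a median log2 fold change of -0.13, where 19.3% of all genes tested were called lower and 19.9% higher; 2 of the 5 were called in DESeq2. PSME1, the alpha subunit of the PA28 activator, stood at 99.0 ± 1.42 CPM in shCtrl and 80.4 ± 5.89 CPM in shPRSS22 and fell (log2 fold change of -0.30 with an SE of 0.0452, adjusted p = 2.95e-06), and its partner PSME2 had a value of -0.13 (adjusted p = 0.0234). PSMB10, the beta-2i subunit, stood at 4.36 ± 0.623 and 3.06 ± 0.376 CPM (log2 fold change of -0.51, adjusted p = 0.0183). POMP, the proteasome maturation protein, rose by 0.17 on the log2 scale. Without shCtrl replicate 1 the list held 2 calls: PSMB10 (adjusted p = 0.122), PSME2 (0.0656) and PSME3 (0.147) lost theirs, as each did in DESeq2. PSMB10 also lost its call without shPRSS22 replicate 2 (0.0554) or 3 (0.0712), PSME2 without shCtrl replicate 3 (0.0724) or shPRSS22 replicate 3 (0.162), and PSME3 without shPRSS22 replicate 1 (0.137). Without shPRSS22 replicate 3 the list held 3 calls.

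**Figure D4:**
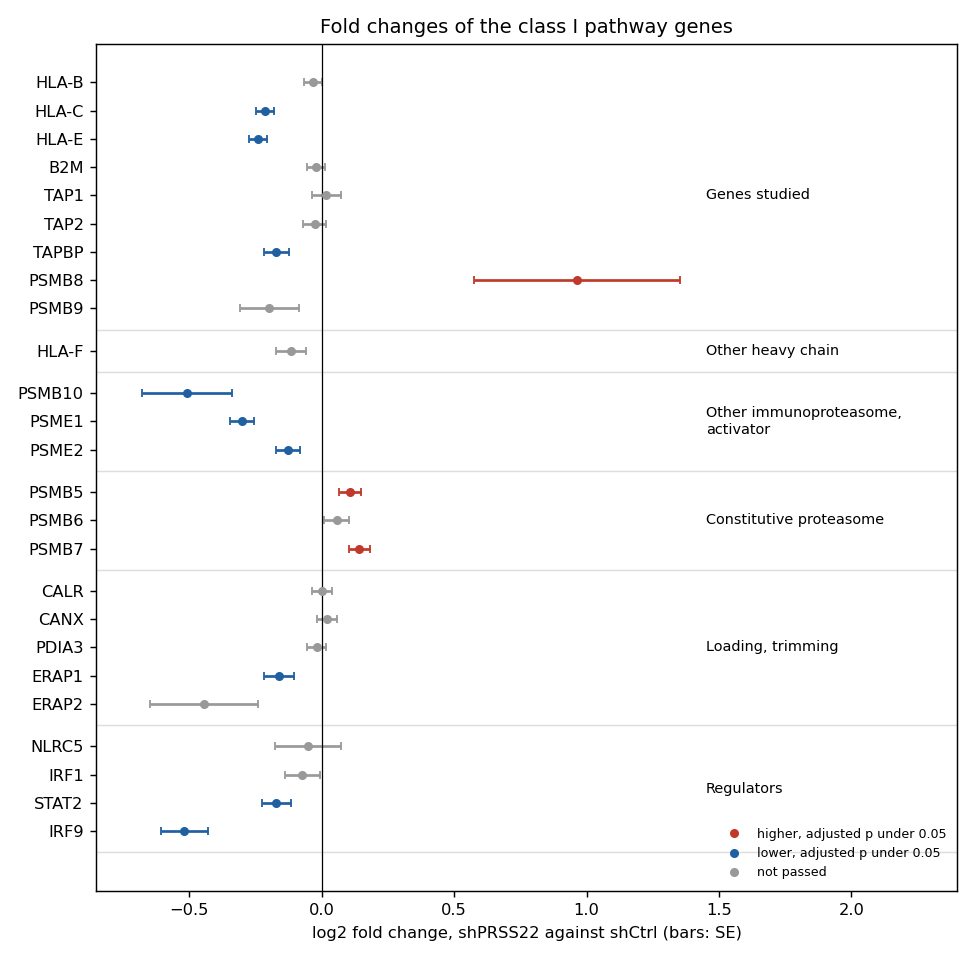
Log2 fold changes (shPRSS22 against shCtrl, bars: SE, n = 3 libraries per group) of the 9 genes and of their partners, coloured by the call at adjusted p under 0.05. HLA-C, HLA-E, TAPBP and PSME1 lie between -0.17 and -0.30, whereas HLA-B, B2M, TAP1 and TAP2 lie between -0.03 and 0.02.

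Of 7 tested peptide loading and trimming genes of the endoplasmic reticulum 1 rose, 1 fell and 5 did not pass (median log2 fold change 0.00). The loading complex partners CALR (0.00), CANX (0.02) and PDIA3 (-0.02) did not pass, the chaperone HSPA5 rose by 0.26, and the aminopeptidase ERAP1, which trims peptides to fit class I molecules, fell (-0.16, adjusted p = 0.0230). ERAP1 no longer passed with shCtrl replicate 1 (adjusted p = 0.118) or 3 (0.0524) or shPRSS22 replicate 2 (0.0712) left out, or in DESeq2 (0.128). Without either of these shCtrl libraries the list held 1 call. ERAP2 had a value of -0.44 at few counts and did not pass (adjusted p = 0.0846), and TAPBPL, a relative of tapasin, had at most 10 counts and was not tested. Of 6 cytosolic trimming peptidases 2 fell, 1 rose and 3 did not pass. The counts of both lists are read against the 39.1% of all genes called in either direction, and neither is set apart from it. LAP3, a leucine aminopeptidase, stood at 68.7 ± 0.573 and 55.1 ± 1.69 CPM and fell (log2 fold change of -0.32, adjusted p = 1.39e-06), and the bleomycin hydrolase BLMH rose by 0.20. TPP2, tripeptidyl peptidase, was lower (-0.13, adjusted p = 0.0309), a call that ended without any 1 of shCtrl replicates 1 (0.0527), 2 (0.0915) and 3 (0.0740) and shPRSS22 replicates 1 (0.103) and 2 (0.101), and in DESeq2 (0.141).

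NLRC5, the class I transactivator, was at 7.25 CPM in shCtrl with a log2 fold change of -0.05 (adjusted p = 0.773), and IRF1 had a value of -0.07 (0.404). Of 18 tested class I regulators 3 rose, 0 fell in edgeR and 15 did not pass, where 19.9% of all genes tested were called higher and 19.3% lower. EZH2, the Polycomb methyltransferase, rose by 0.28 (adjusted p = 0.000248). USF1, an E-box factor, rose by 0.24 (adjusted p = 0.00957), a call lost without shCtrl replicate 1 (0.0636) or shPRSS22 replicate 3 (0.102) and in DESeq2 (0.0618). Without shCtrl replicate 3 the list held 5 calls and without shPRSS22 replicate 3 it held 1. Of 17 tested interferon receptor and JAK-STAT genes 5 fell and 2 rose, counts that are not set apart from the 19.3% and 19.9% of all genes called lower and higher. IRF9, the DNA-binding part of the interferon-stimulated factor ISGF3, fell at 20.5 ± 1.99 and 14.3 ± 1.62 CPM (-0.52, SE 0.0879, adjusted p = 1.86e-05). STAT2 was also lower (-0.17, adjusted p = 0.0135), but not without shCtrl replicate 1 (0.0924) or 2 (0.0814) or shPRSS22 replicate 2 (0.0739), or in DESeq2 (0.0525). The kinase gene JAK1 (0.16) and the receptor gene IFNGR1 (0.15) rose. Among genes that act on class I molecules at the surface or on their way to it, 1 of 8 tested was called. Over all genes tested, 39.1% were called in either direction. The gene called, APLP2, which takes class I molecules into the cell, was lower (-0.12, adjusted p = 0.00464). That list held 2 calls without shCtrl replicate 3, shPRSS22 replicate 1 or shPRSS22 replicate 2.

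Of 8 tested class I and class I-like genes outside the 9, 2 rose, 2 fell and 4 did not pass. Calls in either direction were made for 39.1% of all genes tested. HFE, an iron regulator with a class I fold, was lower (-0.30, adjusted p = 0.0378), a call lost without any 1 of the 6 libraries (adjusted p between 0.0692 and 0.0951), in DESeq2 (0.193) and with no filter on low counts (0.0529). MR1, which presents vitamin B metabolites, was higher (0.26, adjusted p = 0.0107) but not without shCtrl replicate 2 (0.0987) or shPRSS22 replicate 1 (0.0858), and PROCR, the protein C receptor, rose by 0.27. HLA-F had a value of -0.12 (adjusted p = 0.109).

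The genes whose levels over the 6 libraries lay nearest to the median profile of the 9 genes were found among 11148 others with a mean of at least 5 CPM, by the root mean square distance of their log2 levels, each less its own mean. The median profile was at 0.05, 0.03 and 0.01 in shCtrl and at -0.06, -0.06 and -0.04 in shPRSS22, nearly flat. The nearest genes were PVR, the poliovirus receptor and a ligand of natural killer and T cell receptors (distance 0.0143), RPN2, an oligosaccharyltransferase subunit (0.0149), DBNL, an actin-binding adaptor (0.0150), ZNFX1, a helicase-like gene (0.0154), and MICAL2, an actin-oxidising enzyme (0.0155), where the median distance was 0.103. Of the 9 genes themselves PSMB8 lay 0.703 from the profile and the others between 0.0338 and 0.0838.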

How the data were processed

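Counts of 6 libraries, 3 shCtrl and 3 shPRSS22, came from 1 deposited table. Per the submitters' processing notes, HISAT2 2.2.1, Bowtie2 2.3.4.3, RSEM 1.3.1 and DESeq2 1.4.5 were used with GRCh38.p13; their roles are not given in the sources used here. The deposited read counts are estimated counts per gene, some with decimals, and were rounded. The deposited TPM and FPKM values are the authors' length-scaled levels. TPM served only for levels between genes and ratios within a library, and FPKM as an alternative for some of the ratios. The authors' deposited log2 fold changes and their p-values and q-values are quoted as such; the deposited normalised counts, a scaled signal, were not used.

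The estimated counts were tested with edgeR 4.0.16 (R 4.3.3; TMM, filterByExpr, robust quasi-likelihood F test, group only), which was tested on simulated data. The Benjamini-Hochberg adjustment ran over all 13104 genes tested, two-sided, with a threshold of 0.05. CPM are per 1000000 of the TMM-scaled total; marker sums use the unscaled total. The SE is the log2 fold change divided by the square root of F. Ratios were compared by exact permutation tests, 12 in one family, and 9 of them were added after seeing the data. Of those 9, alternatives were run only for HLA-C to HLA-B and HLA-E to HLA-B, also after seeing the data. Same-numbered libraries deviated together at correlations of 0.00459, 0.0164 and 0.0974, so the numbers were not taken as pairs. Replicate pairs differed by a chi-square of 1.80 to 3.05 per gene, above sampling noise, and each counted as 1 replicate.

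Besides the 9 genes and PRSS22, genes were named by rule: up to 2 rising and 2 falling most per list among those called at 1 CPM or more, direct partners of the 9, and the 5 nearest profiles. PSME3, HLA-F, TAPBPL, RGL2, KRT20 and the marker genes were named after their values were seen. MICA, MICB and CD74 were also named outside this rule. The 9 genes and 11 pathway lists were chosen with earlier results of these data known. Alternatives were DESeq2 1.42.0, RLE factors, library totals, no filter, a replicate block and leaving out each library. Promoters were searched and aligned with Biopython 1.88. Some genes of the lists are not reported here, although the list counts and the family of ratios include them.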

Additional observations from a re-analysis of the deposited data

How the results depend on the processing

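HLA-C, HLA-E and TAPBP were called lower under every alternative run; without 1 library the log2 fold change was -0.24 to -0.20 for HLA-C, -0.25 to -0.23 for HLA-E and -0.19 to -0.15 for TAPBP. B2M and TAP1, not called, changed sign in some of these fits. The number of the 9 genes called higher was 0 in DESeq2, where PSMB8 had no adjusted p, with no filter on low counts and with the replicate number as a block, and 0 to 1 without 1 library. DESeq2 called 1637 genes lower and 1760 higher, against 2523 and 2603. It made 1 call among loading genes (2 in edgeR), 2 among immunoproteasome and activator genes (5), 1 among constitutive subunits (2), 1 among regulators (3), 1 among NKG2D ligands (3), 1 among checkpoint ligands (2) and 1 among class II genes (6). Surface turnover genes had 2 calls in place of 1 with library totals only, with no filter and with the replicate block, and checkpoint ligands 5 in place of 2 with the block. Blocking on the replicate number, which labels give but which does not pair the libraries, ended the call of PSMB8 (adjusted p = 0.0588). Signs of paired differences were taken for the ratios of PSMB8 to PSMB5, PSMB9 to PSMB6, summed heavy chains to B2M, HLA-C to HLA-B and HLA-E to HLA-B. Each had an exact permutation p of 0.25, the smallest possible. The other ratios were not run this way. Without 1 library the calls numbered 2 to 3 for other heavy chains (4 with all), 1 to 2 for loading, 2 to 5 for immunoproteasome and activator genes, 1 to 2 for constitutive subunits, 1 to 5 for regulators, 1 to 2 for surface turnover, 1 to 3 for checkpoint ligands and 1 to 4 for class II genes. The cause of these differences was not tested. Depth limits PSMB8, at 4 to 19 counts a library; intervals cover the spread of 3 libraries a group only.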

Other observations

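Ligands that report to T cells and natural killer cells beside class I molecules moved in both directions. Of 8 tested stress ligands of the receptor NKG2D 2 rose and 1 fell, where 39.1% of all genes tested were called in either direction. ULBP1 stood at 63.9 ± 1.58 CPM in shCtrl and 90.2 ± 1.73 CPM in shPRSS22 and rose (mean ± SD, n = 3; log2 fold change of 0.50 with an SE of 0.0427, edgeR adjusted p = 4.80e-11), higher in 3 of 3 knockdown libraries. ULBP2 rose by 0.22 on the log2 scale (adjusted p = 0.0125, 0.0970 in DESeq2), while ULBP3 was lower (-0.22, adjusted p = 0.00516, but 0.0508 without shCtrl replicate 3 and 0.0503 in DESeq2). MICA and MICB, the class I-like ligands within the MHC, had values of 0.11 and 0.09 and did not pass. Of 7 tested checkpoint ligand genes 1 rose and 1 fell, and the counts of neither list are set apart from the 39.1% of all genes. CD274, which encodes PD-L1, stood at 10.96 ± 1.03 and 14.8 ± 0.775 CPM and rose (log2 fold change of 0.43 with an SE of 0.0935, adjusted p = 0.000419). VTCN1, which encodes B7-H4, was lower at few counts (-0.66, adjusted p = 0.0286), and lost its call without shCtrl replicate 1 (0.120) or shPRSS22 replicate 1 (0.228) and in DESeq2 (0.141). Without either of these libraries the list held 1 call.

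MHC class II genes, usually the mark of professional antigen-presenting cells, were measurable in these cells. Of 11 tested members 5 rose and 1 fell, with a median log2 fold change of 0.19. Over all genes tested, 19.9% were called higher and 19.3% lower, and in DESeq2 the class II list held 1 call. HLA-DRA, the alpha chain of HLA-DR, stood at 14.1 ± 0.433 and 19.3 ± 1.18 CPM and rose (log2 fold change of 0.45 with an SE of 0.0808, adjusted p = 4.21e-05), higher in 3 of 3 knockdown libraries. HLA-DPB1 was higher (0.49, adjusted p = 0.0194; 0.140 without shCtrl replicate 1, 0.0510 without shPRSS22 replicate 1 and 0.0837 without shPRSS22 replicate 3, and 0.112 in DESeq2). CIITA, the class II transactivator, was lower at 3.34 CPM in shCtrl (-0.56, adjusted p = 0.0301; 0.10 and 0.0965 without shCtrl replicates 2 and 3, 0.133 and 0.140 without shPRSS22 replicates 1 and 2, and 0.150 in DESeq2). CD74, the invariant chain, was at 0.730 CPM in shCtrl and did not pass. The list held 4 calls without shCtrl replicate 1 or shPRSS22 replicate 3, 3 without shCtrl replicate 3 or shPRSS22 replicate 2, 2 without shCtrl replicate 2 and 1 without shPRSS22 replicate 1.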
